A study of Mus musculus with 6 samples.

Results

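The astrocyte marker genes are 30 genes known as markers of astrocytes, the star-shaped glial cells of the brain. They were followed in hippocampus RNA from mice that carry a duplication on chromosome 11 and from mice that do not. Each gene was taken by its brightest probe set among those annotated to that gene alone, by the mean over all 6 arrays, and all 30 of 30 were measured, out of 18193 genes in all. The choice of probe set used no difference between the groups, but the 30 genes were listed with earlier results of these data known. None of the 30 lies in the duplicated segment between Cops3 and Rnf112, and 4 of them, Aldoc, Atp1b2, Gfap and Sox9, lie elsewhere on chromosome 11.

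The study hybridized hippocampus RNA of single mice to 1-colour Affymetrix arrays. The duplication mice, 3 in number, were Dp(11)17/+, heterozygous for the duplicated chromosome 11, a mouse model of Potocki-Lupski syndrome by the series title. The controls were 3 +/+ mice. All 6 shared the strain background C57BL/6-Tyr c-Brd, were labelled as males, and were 11 to 14 weeks old. The labels number each mouse but name no litter or cohort, so a difference of that kind between the groups could not be separated from genotype. The labelling protocol speaks of pools although each sample names 1 individual.

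Astrocytes take up the glutamate that neurons release and return it to them as glutamine. They are joined to each other by gap junctions, move water and ions at their end feet on blood vessels, and hold the glial filament protein GFAP. In the hippocampus, the radial stem cells of the dentate gyrus share several of these genes with astrocytes. Apoe, Clu, Id3, Mt1 and Mt2 are made by other brain cells as well, so the list is a set of markers of unequal strictness.

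Before the members are described, some facts of the arrays bear on them. The array labelled duplication replicate 1 had a log2 value of 9.13 for Xist, an RNA of the inactive X chromosome of females, against 3.06 to 3.69 in the other 5, although every mouse was labelled male. The Y-linked genes Eif2s3y and Kdm5d were 2.48 and 2.47 on that array, against 5.41 to 6.01 and 4.70 to 5.06 in the other 5, so it went against its label. Duplication replicate 3 stood apart by regional markers. Its mean log2 level over 12 markers of thalamus and habenula was 7.52, against 5.02 to 5.57 in the other 5 mice. Its mean over 13 striatal markers was 7.25, and that of duplication replicate 1 was 6.66, against 5.42 to 6.04 in controls. Markers of the hippocampus itself were low there: the 9 dentate granule markers averaged 4.51 in duplication replicate 3 and 5.59 in duplication replicate 1, against 6.47 to 6.69 in controls, and 7.23 in duplication replicate 2. The count over all members, and those of the role groups below that it changes, are therefore also given without these mice. Astrocyte RNA was plainly present on every array, with values of at least 8.32 for Gfap, 8.55 for Aqp4, 11.59 for Slc1a2, 8.79 for Slc1a3 and 10.48 for Gja1. In bulk tissue, more astrocytes and more RNA of a gene per astrocyte cannot be told apart.

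Most astrocyte genes lay slightly higher in the duplication mice, and none passed the test over all probe sets. The mean was higher in the duplication group for 24 of the 30 genes (80.0%), where 41.7% of all 18193 genes were higher, or 40.9% of the 7104 brighter genes, those averaging at least 6 on the log2 scale over the 6 arrays, to which 28 of the 30 belong. The median log2 fold change over the 30 genes was 0.13, or 1.09-fold, against -0.02 over all genes. The single genes ranged from -0.39 for Gfap to 0.34 for Gjb6. After Benjamini-Hochberg adjustment over 45037 probe sets, limma called 0 of the 30, and 0% of all genes, with a smallest adjusted p of 0.994 among the members. The plain equal-variance statistic also called 0.

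At an unadjusted p under 0.05, limma singled out 3 of the 30 genes as higher, Gjb6, Hepacam and Fgfr3, and 0 as lower. Over all genes this threshold was passed by 1.15% in the higher direction and by 2.01% in the lower one, and by 1.45% in the higher direction among the brighter genes. In 5 of the 30 genes, Slc1a2, Glul, Gjb6, Hepacam and Fgfr3, all duplication values exceeded all control values, which held for 2.7% of all genes and 2.73% of the brighter ones. The opposite order held for 0 of the 30 and for 5.59% of all genes. Members were few among the lower genes although lower genes were the more frequent kind on these arrays.

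The count of higher genes rested on no single mouse, but its size moved. It was 24 of 30 without duplication replicate 1, with a median of 0.10, and 29 without duplication replicate 3, with a median of 0.11. Without duplication replicate 2 it was 24, with a median of 0.15. With duplication replicate 2 alone against the 3 control mice, 20 of 30 were higher, with a median of 0.12 against -0.02 over all genes. Without control replicate 2, whose values were the highest of its group on average, 28 were higher.

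**Figure D1:**
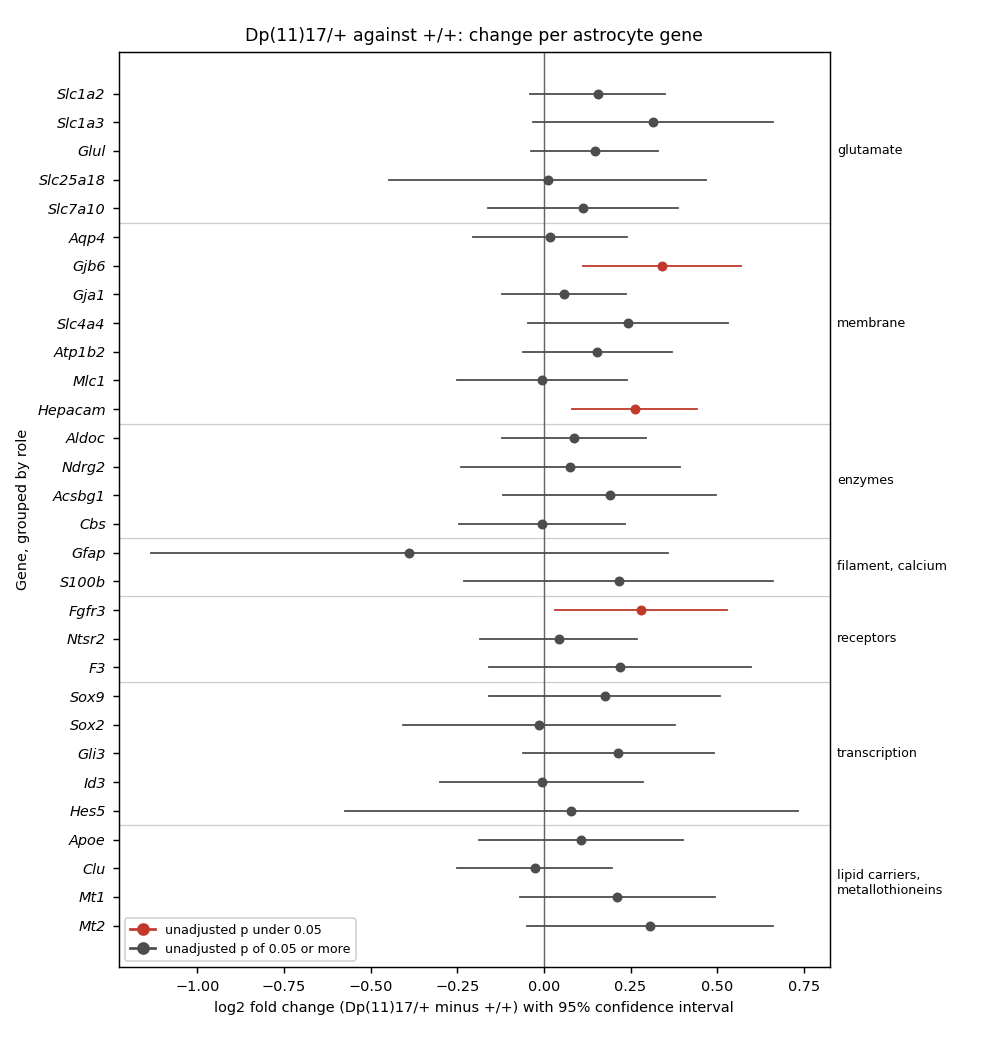
Log2 fold change of each of the 30 astrocyte genes, duplication minus control (horizontal axis), with the 95% confidence interval from limma; genes are grouped by role, and red marks an unadjusted p under 0.05. The points of 24 genes lie right of 0, the intervals of Gjb6, Hepacam and Fgfr3 leave out 0, and Gfap at -0.39 has the widest interval.

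The 5 genes grouped under glutamate handling, of which Slc7a10 encodes a carrier of neutral amino acids, all had the higher mean in duplication mice. Their median was 0.15, and 0 of them passed. With duplication replicate 2 alone 4 of the 5 were higher. Slc1a2 encodes GLT-1, the main glutamate transporter of forebrain astrocytes. Its log2 values were 11.86, 11.86 and 11.74 in duplication replicates 1, 2 and 3, and 11.73, 11.68 and 11.59 in control replicates 1, 2 and 3. The groups do not overlap, by the narrow gap between duplication replicate 3 and control replicate 1, and the log2 fold change was 0.16 (SE 0.08, limma unadjusted p = 0.101). A dimmer probe set of Slc1a2 gave 1.10 (SE 0.54), with control replicate 3 at 4.42 and the other 5 mice between 6.23 and 7.43, so that single array sets its size.

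Slc1a3, which encodes GLAST, the other astrocyte glutamate transporter, had values of 9.51, 9.45 and 9.17 in duplication mice and 9.22, 9.18 and 8.79 in control mice. Duplication replicates 1 and 2 were high and control replicate 3 low, while duplication replicate 3 was among the control mice. Its log2 fold change was 0.31 (SE 0.15, limma unadjusted p = 0.0698). Glul encodes glutamine synthetase, which turns glutamate into glutamine, and had values of 10.55, 10.57 and 10.46 against 10.35, 10.36 and 10.44. The groups just fail to overlap, with a log2 fold change of 0.15 (SE 0.08, limma unadjusted p = 0.102). The second probe set of Glul separated them more widely, at 8.43, 8.23 and 8.32 against 8.09, 8.03 and 7.97, with a log2 fold change of 0.29 (SE 0.09, limma unadjusted p = 0.0113).

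Slc7a10, which encodes the neutral amino acid transporter Asc-1, gave 0.11 (SE 0.12). Slc25a18, a mitochondrial glutamate carrier, had one of 0.01 (SE 0.19), but its duplication mice were far apart, at 8.38, 7.58 and 8.14, against 7.92 to 8.09 in controls.

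The genes of membrane channels, junctions and adhesion had the higher mean in 6 of 7 cases, at a median of 0.15, and held 2 of the 3 genes with an unadjusted p under 0.05. The mean over these 7 genes was 9.02, 9.03 and 9.02 in the duplication mice and 8.87, 8.88 and 8.85 in the control mice. Single genes varied more than this mean: their ranges across the duplication mice ran from 0.11 for Hepacam to 0.32 for Slc4a4. Gjb6 encodes connexin 30, a gap junction protein of mature astrocytes. Its log2 values were 8.52, 8.41 and 8.69 in duplication mice and 8.27, 8.15 and 8.18 in control mice. Every duplication mouse lay above the control range, duplication replicate 3 the farthest, and the means were 8.54 ± 0.14 and 8.20 ± 0.06 (SD, n = 3). The log2 fold change was 0.34 (SE 0.10, 1.27-fold, limma unadjusted p = 0.00974, adjusted p = 0.994). The unadjusted p stayed under 0.05 in each of the 6 fits that left out a mouse, with log2 fold changes of 0.27 to 0.41.

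Hepacam encodes GlialCAM, an adhesion protein that binds MLC1 at astrocyte junctions. It had log2 values of 7.40, 7.29 and 7.36 in duplication mice and 7.05, 7.11 and 7.09 in control mice. The groups were tight and well apart, with means of 7.35 ± 0.06 and 7.09 ± 0.03 (SD, n = 3) and a log2 fold change of 0.26 (SE 0.08, 1.20-fold, limma unadjusted p = 0.0107, adjusted p = 0.994). Its dimmer probe set gave 0.21 (SE 0.09), again without overlap. The unadjusted p of the brighter probe set stayed under 0.05 in all 6 fits that left out a mouse.

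The promoter windows of Gjb6 and Hepacam, the genes of the list with the smallest p, are shown because SOX factors, which Sox9 and Sox2 of the same list encode, are regulators of glial genes. The windows run from 250 bases before to 50 after the annotated start and come from RefSeq on GRCm38.p6. The letters ACAAT, 1 form of the SOX core, were searched on both strands, and capitals mark their matches. Other forms of the core were not searched. Gjb6 lies at chr14:57133562-57133861, minus strand, and Hepacam at chr9:37367356-37367655, plus strand.
Gjb6: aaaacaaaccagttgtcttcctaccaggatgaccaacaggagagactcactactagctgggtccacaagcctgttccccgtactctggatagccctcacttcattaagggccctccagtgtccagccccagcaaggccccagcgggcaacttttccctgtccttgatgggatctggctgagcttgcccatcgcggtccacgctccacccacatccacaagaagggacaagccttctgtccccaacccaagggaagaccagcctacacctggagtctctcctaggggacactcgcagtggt
Hepacam: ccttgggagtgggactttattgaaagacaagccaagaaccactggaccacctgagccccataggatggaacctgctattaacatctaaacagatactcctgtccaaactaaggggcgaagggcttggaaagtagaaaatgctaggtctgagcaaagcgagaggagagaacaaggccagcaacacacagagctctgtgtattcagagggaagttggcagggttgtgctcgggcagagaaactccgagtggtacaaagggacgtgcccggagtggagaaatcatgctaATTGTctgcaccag
The window of Hepacam held 1 match, on the opposite strand, and that of Gjb6 held 0. Of the 33 windows of the 26 members found in the table, 6 held a match, or 18.2%, against 31.0% of all 32851 windows. A match of these letters is a description of the sequence only.

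Gja1 encodes connexin 43, the partner junction protein of Gjb6 in astrocytes. It had values of 10.54, 10.62 and 10.50 against 10.50, 10.49 and 10.48, a log2 fold change of 0.06 (SE 0.08, limma unadjusted p = 0.471). The control mice were nearly equal, and duplication replicate 3 stood within their range. The 95% confidence interval of Gja1, from -0.12 to 0.24, overlaps that of Gjb6, from 0.11 to 0.57, and the difference between the genes was not tested. Aqp4, the water channel of astrocyte end feet, had values of 8.56, 8.78 and 8.66 against 8.55, 8.69 and 8.71. The groups overlap fully, with a log2 fold change of 0.02 (SE 0.09, limma unadjusted p = 0.856) whose sign turned without duplication replicate 2 (-0.041) or control replicate 1 (-0.032). Slc4a4, the sodium bicarbonate cotransporter, gave 0.24 (SE 0.12), and Atp1b2, a subunit of the sodium pump also known as an adhesion molecule of glia, had 0.15 (SE 0.09). Mlc1, whose protein is the partner of GlialCAM, gave -0.0048 (SE 0.10), from means of 8.03 ± 0.15 for duplication and 8.03 ± 0.09 for control mice (SD, n = 3).

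The genes of intermediate filament and calcium binding, Gfap and S100b, differed in direction, and duplication replicate 3 was the extreme mouse for the brightest probe set of each. Gfap encodes the filament protein of astrocytes. Its values were 9.37, 9.66 and 8.32 in duplication mice and 9.46, 9.48 and 9.59 in control mice. Duplication replicate 3 stood at -1.19 relative to the control mean, while duplication replicate 2 was the highest of all 6. The log2 fold change was -0.39 (SE 0.32, limma unadjusted p = 0.258), and 0.012 without duplication replicate 3. All 3 probe sets of Gfap gave this pattern, with log2 fold changes of -0.39, -0.36 and -0.38.

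S100b encodes a calcium-binding protein of astrocytes and some oligodendrocytes. It had values of 8.36, 8.13 and 8.82 against 8.16, 8.44 and 8.06, so here duplication replicate 3 was the highest of all mice, 0.60 above the control mean. The log2 fold change was 0.22 (SE 0.19, limma unadjusted p = 0.292), 0.02 without duplication replicate 3 and -0.09 with duplication replicate 2 alone. The second probe set of S100b had values of 8.45, 8.09 and 8.54 against 8.04, 8.13 and 8.11, a log2 fold change of 0.27 (SE 0.13, limma unadjusted p = 0.0696). There duplication replicate 1 was nearly as high as duplication replicate 3, and duplication replicate 2 lay among the controls. In duplication replicate 3 the markers of thalamus and habenula lay 2.23 above their control mean, those of striatum 1.58 above it, and those of CA1 pyramidal cells and dentate granule cells at -1.59 and -2.04. The part of these regional differences in the values of Gfap and S100b was not tested.

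**Figure D2:**
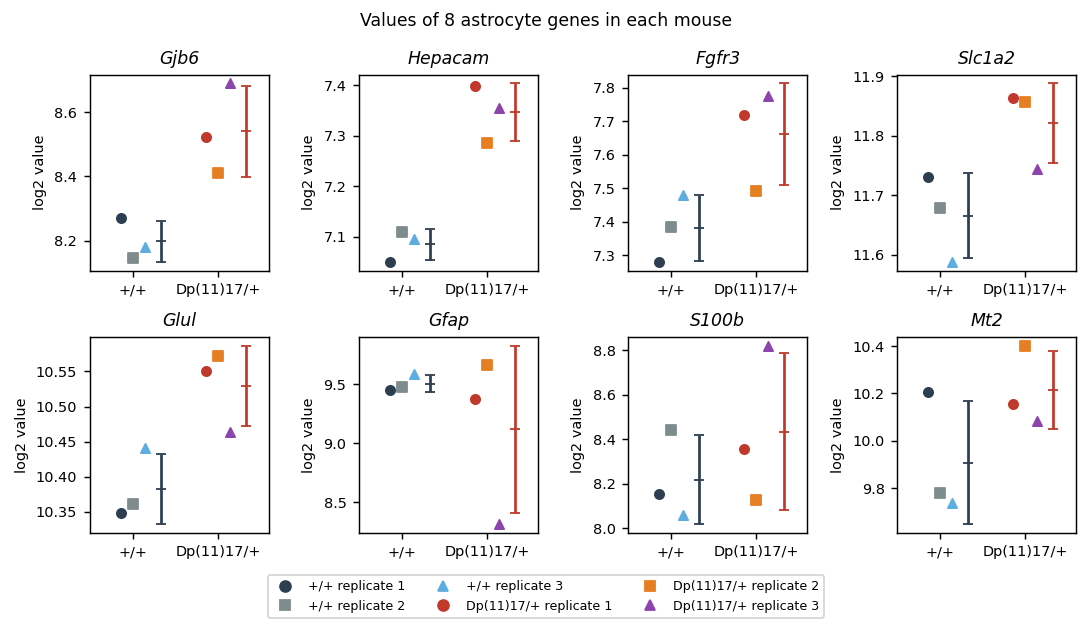
Log2 value of 8 astrocyte genes in each of the 6 mice, control on the left and duplication on the right of each panel; the bar beside each group is its mean ± SD (n = 3), and each panel has its own vertical scale. The 3 duplication mice lie above all control mice for Gjb6, Hepacam, Fgfr3, Slc1a2 and Glul, while Gfap and S100b are set apart by duplication replicate 3 in opposite directions.

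The surface receptor genes had the higher mean in 3 of 3 cases, at a median of 0.22, and in 2 of 3 with duplication replicate 2 alone. Fgfr3, a fibroblast growth factor receptor of astrocytes and their precursors, had log2 values of 7.72, 7.49 and 7.78 in duplication mice and 7.28, 7.38 and 7.48 in control mice. Duplication replicate 2 lay only just above control replicate 3, and the means were 7.66 ± 0.15 and 7.38 ± 0.10 (SD, n = 3). The log2 fold change was 0.28 (SE 0.11, 1.21-fold, limma unadjusted p = 0.0321, adjusted p = 0.994). Its unadjusted p stayed under 0.05 in 2 of the 6 fits that left out a mouse and was 0.0694 to 0.103 in the other 4, those without duplication replicate 1, duplication replicate 3, control replicate 1 or control replicate 2. It was 0.0549 with the plain equal-variance statistic, and a dimmer probe set gave 0.02 (SE 0.12). With the mean of all probe sets of the gene, the log2 fold change of Fgfr3 was 0.15 (limma unadjusted p = 0.199), and Glul took its place among the 3 members under 0.05. F3, the tissue factor gene that starts blood clotting, had a log2 fold change of 0.22 (SE 0.16), with duplication replicates 1 and 3 at 6.71 and 6.70 and duplication replicate 2 at 6.20, against 6.16 to 6.47 in controls. Ntsr2, a neurotensin receptor of astrocytes, had 0.04 (SE 0.10).

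The enzyme genes and Ndrg2, grouped together, had the higher mean in 3 of 4 cases, at a median of 0.08, and 0 passed. With duplication replicate 2 alone 1 of the 4, Cbs, was higher. Acsbg1, an acyl-CoA synthetase of glia, gave 0.19 (SE 0.13), Aldoc, the brain aldolase of glycolysis, 0.09 (SE 0.09), Ndrg2 0.08 (SE 0.13), and Cbs, the first enzyme from homocysteine to cysteine, -0.01 (SE 0.10). Acsbg1 and Ndrg2 were higher in duplication replicates 1 and 3 than in duplication replicate 2, by values of 7.55 and 7.68 against 7.31 and of 10.05 and 10.10 against 9.76. Control replicate 2 was nearly as high, at 7.50 for Acsbg1 and 10.07 for Ndrg2. The dimmer probe set of Aldoc showed the same split, at 8.02 and 8.04 in duplication replicates 1 and 3, 7.38 in duplication replicate 2 and 7.16 to 7.44 in controls. Its log2 fold change was 0.49 (SE 0.19, limma unadjusted p = 0.0331). Within the duplication group, Acsbg1, Ndrg2, F3, S100b and this probe set of Aldoc were thus higher in both mice with high striatal markers than in duplication replicate 2. For Ndrg2 and S100b, though, duplication replicate 1 lay below control replicate 2. Both mice also exceeded duplication replicate 2 for Gjb6, Hepacam and Fgfr3, the members with a limma unadjusted p under 0.05. For these genes duplication replicate 2 still lay above all controls. The same order held for Atp1b2, Slc25a18, Apoe, Slc7a10, Sox2, Hes5 and the brightest probe set of Aldoc. Both mice lay below duplication replicate 2 for Aqp4, Gfap, Gja1, Glul, Ntsr2, Slc4a4, Cbs, Mt1, Mt2 and Id3. The remaining members were mixed. The part of the striatal difference in these values was not tested.

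The transcription regulators had the higher mean in 3 of 5 cases, at a median of 0.08, and 0 passed. Sox9, a factor of astrocyte identity, had values of 5.75, 5.30 and 5.24 against 5.19, 5.28 and 5.29, so duplication replicate 1 alone stood above the rest. Its log2 fold change was 0.18 (SE 0.14, limma unadjusted p = 0.254), and 0.02 without duplication replicate 1. Hes5, a target of Notch signalling in neural stem cells, spread most after Gfap, with a range of 1.08 over the 6 mice. It was 7.06 in duplication replicate 1 and 5.98 in control replicate 1, and its log2 fold change was 0.08 (SE 0.28). Gli3, a mediator of hedgehog signalling, had 0.21 (SE 0.12). Sox2, a factor of neural stem cells and astrocytes, had -0.01 (SE 0.17), and Id3, a target of bone morphogenetic proteins, had -0.01 (SE 0.12).

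The lipid carriers and metallothioneins had the higher mean in 3 of 4 cases, at a median of 0.16, and 0 passed. Apoe, the main lipid carrier protein of the brain, gave 0.11 (SE 0.12), and Clu, the chaperone clusterin, had -0.03 (SE 0.09). The metallothioneins Mt1 and Mt2 bind zinc and copper and are induced by metals and by glucocorticoids. Mt1 had values of 11.12, 11.31 and 10.95 against 11.07, 10.84 and 10.84, with a log2 fold change of 0.21 (SE 0.12, limma unadjusted p = 0.119). Mt2 had values of 10.16, 10.40 and 10.09 against 10.21, 9.78 and 9.74, with a log2 fold change of 0.31 (SE 0.15, limma unadjusted p = 0.0813). In both genes duplication replicate 2 was the highest mouse, control replicate 1 lay among the duplication mice, and control replicates 2 and 3 were the lowest. Without control replicate 1 the log2 fold changes were 0.29 for Mt1 and 0.45 for Mt2, the latter with a limma unadjusted p of 0.00937.

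The promoter windows of Mt1 and Mt2 are shown because these neighbouring genes of chromosome 8 followed the same mice. Capitals mark TGCACNC or TGCGCNC, the spellings of the core of the metal response element bound by the zinc sensor MTF1, searched on both strands. The windows lie at chr8:94178839-94179138 for Mt1 and chr8:94172368-94172667 for Mt2, both on the plus strand of GRCm38.p6, from RefSeq.
Mt1: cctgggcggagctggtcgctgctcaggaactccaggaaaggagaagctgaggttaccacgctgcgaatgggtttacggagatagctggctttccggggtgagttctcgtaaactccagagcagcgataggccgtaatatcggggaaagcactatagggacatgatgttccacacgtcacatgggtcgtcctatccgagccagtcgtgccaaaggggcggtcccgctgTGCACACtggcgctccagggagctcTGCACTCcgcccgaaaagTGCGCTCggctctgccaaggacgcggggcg
Mt2: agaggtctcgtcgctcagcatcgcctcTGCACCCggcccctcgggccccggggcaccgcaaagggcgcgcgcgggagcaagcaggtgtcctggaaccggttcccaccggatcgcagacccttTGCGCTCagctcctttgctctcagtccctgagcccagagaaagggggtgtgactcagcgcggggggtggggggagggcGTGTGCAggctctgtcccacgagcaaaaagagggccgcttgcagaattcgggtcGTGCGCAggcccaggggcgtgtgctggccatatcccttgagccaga
Mt1 held 3 matches, all on the strand shown, and Mt2 held 4, with 2 on each strand, and none of the matches overlapped another. At least 1 match stood in 25.7% of all windows, 3 or more in 1.97% and 4 or more in 0.517%. Among the 33 windows of members, 9 held a match, or 27.3%. Mtf1 itself gave 0.08 (SE 0.08), and -0.17 by its probe set of the largest variance, and Mt3, the brain metallothionein, had -0.12 (SE 0.11).

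The members did not move as 1 block within the duplication group. Against the 3 control mice, duplication replicate 1 was above all of them for 19 of 30 genes, duplication replicate 2 for 16 and duplication replicate 3 for 14. Over all genes the shares were 18.2%, 21.7% and 23.4%. Each duplication mouse was below all control mice for few members, 3, 1 and 6 of 30, where the shares over all genes were 29.5%, 27.1% and 32.1%. The mean over the 30 genes was 8.87, 8.77 and 8.76 in duplication replicates 1, 2 and 3 and 8.67, 8.73 and 8.63 in control replicates 1, 2 and 3. Duplication replicate 1 was the highest, and the other duplication mice lay just above control replicate 2. The member farthest above its control mean was Hes5 in duplication replicate 1 (0.54), Mt2 in duplication replicate 2 (0.49) and S100b in duplication replicate 3 (0.60).

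**Figure D3:**
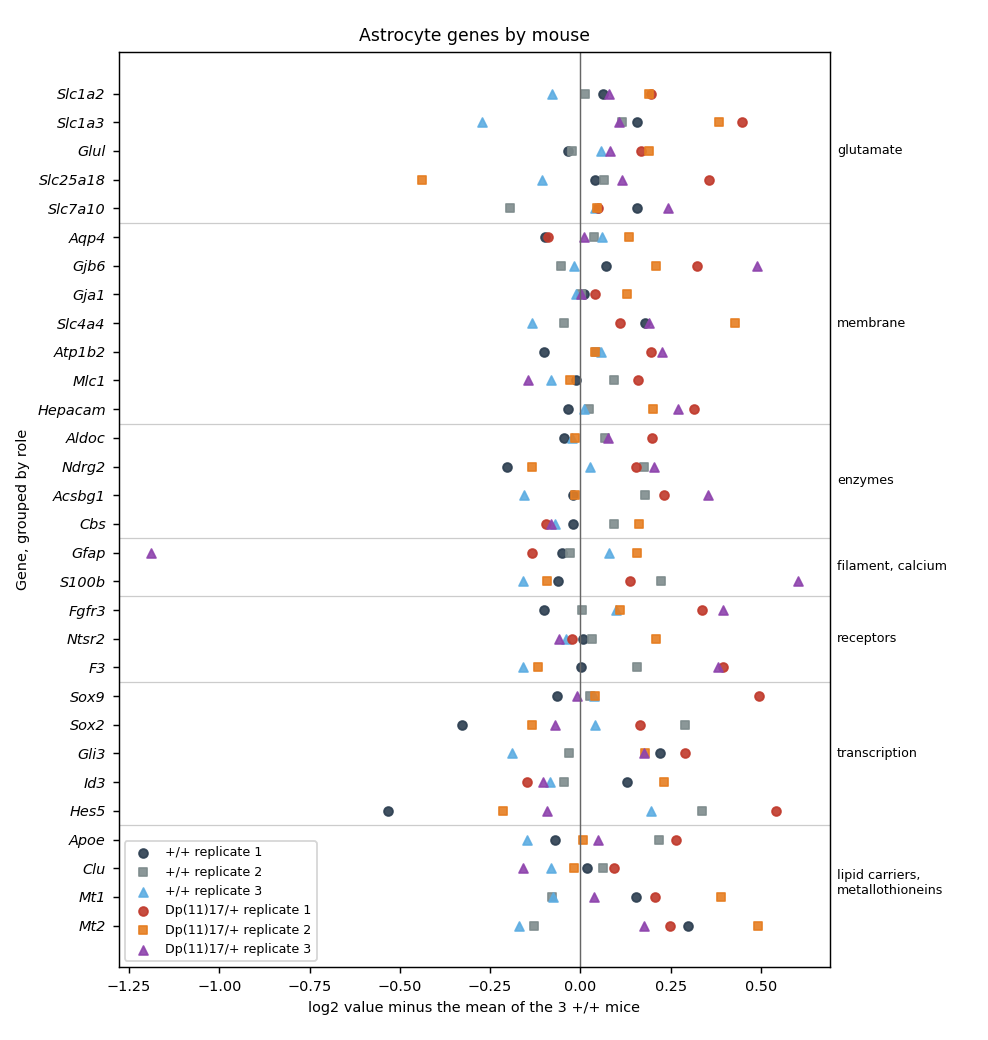
Log2 value of each of the 30 astrocyte genes in each mouse, as the difference from the mean of the 3 control mice (horizontal axis); genes are grouped by role, colours and shapes mark the mice. Most duplication points lie right of 0, Gfap in duplication replicate 3 lies at -1.19, and duplication replicates 1 and 3 stand apart from duplication replicate 2 for F3 and Acsbg1.

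Where a gene had several probe sets, the dimmer ones mostly pointed the same way. The members had 68 probe sets in all, and 18 members had more than 1. Of the 38 dimmer probe sets, 27 were higher in duplication mice, and 2 had an unadjusted p under 0.05 by limma, the probe sets of Aldoc and Glul described above. A sign opposite to the brightest probe set was given by 7, in none of which either probe set had an unadjusted p under 0.05.

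A second list of 29 astrocyte genes that are not among the 30 gave a like picture on the same arrays. This list was also chosen with earlier results of these data known, so it is not an independent check of the 30. It holds genes such as Aldh1l1, the folate enzyme widely used to mark astrocytes, and Kcnj10, their inward rectifier potassium channel. Of the 29, 26 had the higher mean in duplication mice, at a median of 0.14, where 41.7% of all genes were higher. By limma, 2 had an unadjusted p under 0.05, both higher, beside 1.15% of all genes in that direction. In 4 all duplication values exceeded all control values, beside 2.7% of all genes. With duplication replicate 2 alone the median was 0.022, against -0.018 over all genes.

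Dio2, the deiodinase that activates thyroid hormone in astrocytes, had values of 8.29, 7.79 and 8.46 against 7.71, 7.30 and 7.26. Its groups do not overlap, with a log2 fold change of 0.76 (SE 0.20, limma unadjusted p = 0.00629, adjusted p = 0.994). Mertk, a receptor by which astrocytes engulf synapses, had values of 7.10, 6.85 and 6.79 against 6.56, 6.19 and 6.15, and a log2 fold change of 0.61 (SE 0.14, limma unadjusted p = 0.00306, adjusted p = 0.994). These were larger differences than that of any of the 30 members, and microglia express Mertk too. Aldh1l1 had 0.25 (SE 0.14), at 7.30, 6.94 and 7.43 against 7.03, 7.01 and 6.88, with duplication replicate 2 among the control mice. Kcnj10 had 0.14 (SE 0.21), which turned to -0.092 without duplication replicate 3.

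Genes known to go up in reactive astrocytes were mostly dim here, and the sign of their median depended on the dim ones. Of 35 listed, 33 were measured, 12 were higher and 21 lower, with a median of -0.04. By the same measure 9 were bright, over which the median was 0.073. The bright genes went in both directions: the lowest and highest log2 fold changes of the whole list, -0.71 and 0.33, were both of bright genes. Vim, the filament protein vimentin, was the 1 gene of that list with an unadjusted p under 0.05, at 0.33 (SE 0.13, limma unadjusted p = 0.0409, adjusted p = 0.994). Leaving out duplication replicate 2, duplication replicate 3, control replicate 2 or control replicate 3 in turn raised its p to 0.126, 0.065, 0.108 and 0.124. Ptgs2, an inducible cyclooxygenase also made by neurons, had -0.49 (SE 0.22), with no overlap of the groups.

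Markers of other cells were set beside the astrocyte genes on the same scale, each as the range of the mean log2 level in duplication and in control mice. Oligodendrocyte precursor markers, 7 of 7 higher, lay at 6.95 to 7.15 and 6.80 to 6.91. Microglia markers, 12 of 12 higher, lay at 7.04 to 7.43 and 6.96 to 7.17. Endothelial and pericyte markers, 9 of 12 higher, lay at 6.61 to 6.83 and 6.49 to 6.60. Oligodendrocyte markers, 10 of 11 higher, lay at 9.06 to 9.68 and 8.91 to 9.51. The 12 neuron markers, 7 of them higher with a median of 0.02, lay at 9.53 to 9.90 and 9.57 to 9.82, and the astrocyte genes at 8.76 to 8.87 and 8.63 to 8.73. Neuron markers of single regions differed more. Of the striatal markers 13 of 13 were higher, at a median of 0.89, and of those of thalamus and habenula 12 of 12, at 0.60. Of the CA1 pyramidal markers 0 of 9 were higher, at a median of -0.45, and of the dentate granule markers 0 of 9, at -0.81. A higher mean was thus found for most markers of several other kinds of cells, non-neuronal and neuronal, and not for astrocyte genes alone. The part of these other cells in the values of Apoe, Clu, Id3, Mt1 and Mt2 was not tested. The 12 choroid plexus markers followed single mice of both groups, at 4.09 to 6.01 and 3.91 to 6.78.

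**Figure D4:**
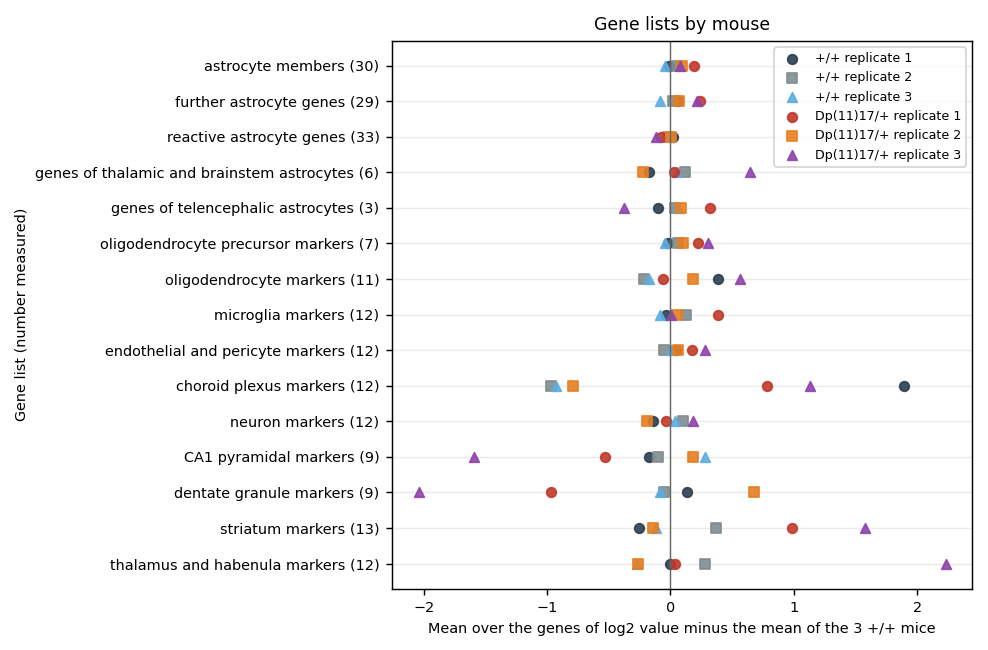
Mean over the genes of each list of the log2 value minus the control mean of that gene, for each of the 6 mice; the number of measured genes stands in brackets. The 30 astrocyte genes lie between -0.045 and 0.19, while duplication replicate 3 reaches 2.23 for thalamus and habenula and -2.04 for dentate granule cells.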

How the data were processed

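Hippocampus RNA of 6 mice, 3 per genotype, was measured on 1-colour arrays. The authors deposited log2 values per probe set, made with RMA per the submitters' processing notes, which corrects background, normalizes over arrays and summarises probes; no source used here gives its version. The extraction protocol names whole brain and other organs, not hippocampus as such; the tissue of the sample labels was used. Precision is limited by the number of arrays. The limma p-values set the group difference against the variance between arrays, drawn toward a value shared by all probe sets.

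Values were used as deposited. The 64 probe sets for array controls were left out and 45037 others tested; 34945 had 1 gene symbol, 932 several and 9160 none. Symbols were updated through Entrez identifiers to the GRCm38.p6 gene table, which held 34741 of the 34945. The fit was limma 3.58.1 in R 4.3.3, lmFit and eBayes without trend or covariates, two-sided, with 7.11 degrees of freedom and Benjamini-Hochberg adjustment over all probe sets, and was tested on simulated data. Fold changes are duplication minus control on the log2 scale.

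The members and the gene lists were chosen with earlier results of these data known. All 30 members are named; of each other list, the 2 genes with the smallest unadjusted p were eligible, with Aldh1l1 and Kcnj10 in addition. Alternatives were filters on dim probe sets, other scalings, other variance models, other probe sets and mice left out. Values per mouse are printed in the order of replicates 1, 2 and 3, numbered in deposition order.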

Additional observations from a re-analysis of the deposited data

How the results depend on the processing

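The median over the members was above 0 under every alternative tried, and 0 members were called after adjustment wherever a test was run. With each mouse left out in turn, 22 to 29 members were higher, with medians of 0.10 to 0.17, but not always the same ones: 15 of the 24 higher members had a higher mean under all 16 alternatives, or those that measured them. Quantile normalization again and centring on array medians turned the sign of 0 of the 30 members, and moved the median of all genes from -0.02 to -0.03. Members with a limma unadjusted p under 0.05 numbered 2 to 5 with a mouse left out. Over all genes the share in either direction moved from 2.15% without duplication replicate 3 to 8.15% without duplication replicate 2, with 4 members in each. With the probe set of the largest variance 5 members passed, which added Aldoc and Glul, beside 3.57% of all genes. The count of members with every duplication mouse above every control mouse was 4 after quantile normalization, where no share of all genes was taken. With the deposited values the count was 5, beside 2.7% of all genes. It was 5 to 11 with a mouse left out, where the share of all genes was 5.38% to 8.81%. Without duplication replicates 1 and 3 it was 16, where the share of all genes was 21.7%. The count of members below all control mice was 0 to 3 with a mouse left out, where no share of all genes was taken. With all 6 mice the count was 0, beside 5.59% of all genes. Without duplication replicates 1 and 3 it was 1, where the share of all genes was 27.1%. Fewer mice raise these counts by construction. With array weights Aqp4 turned to -0.015, Sox2 to 0.043 and Mlc1 to 0.030, and with the probe set of the largest variance Clu turned to 0.0068 and Mtf1 to -0.17; Mtf1 was -0.0084 with the mean of all probe sets. The cause was not tested.

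With each mouse left out in turn, these changes ran through 0: Aqp4 from -0.041 to 0.072, Sox2 from -0.18 to 0.13, Mlc1 from -0.087 to 0.065, Clu from -0.088 to 0.038, Cbs from -0.089 to 0.041, Slc25a18 from -0.16 to 0.24, Id3 from -0.13 to 0.063, Hes5 from -0.19 to 0.25, Ntsr2 from -0.041 to 0.093, Ndrg2 from -0.025 to 0.18, Gfap from -0.66 to 0.012, and outside the members Mfge8 from -0.17 to 0.30, Emx2 from -0.28 to 0.19, Irx2 from -0.10 to 0.36 and Kcnj10 from -0.092 to 0.31. The other 19 members kept their sign there. Tests of counts were not run without duplication replicates 1 and 3, where 1 duplication mouse is left. No paired analysis was possible because the labels give the groups no shared replicate numbers. Depth is unknown for arrays; 2 members, Sox9 and Gli3, had a mean log2 value under 6.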

Other observations

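The means over genes of astrocytes in particular brain regions set duplication replicate 3 apart, but not each single gene did. The mean log2 level over 6 genes of thalamic and brainstem astrocytes was 5.69 in that mouse and 4.82 to 5.17 in the other 5. Only 3 of these 6 genes averaged at least 6 on the log2 scale. Over 3 measured genes of telencephalic astrocytes it was 6.70 there, 7.39 in duplication replicate 1 and 6.97 to 7.16 in the others. Mfge8, a secreted protein of telencephalic astrocytes, was 9.67 in duplication replicate 1 and 8.73 to 9.12 in the other 5 mice. In duplication replicate 3 it was 8.85, within the control range. Irx3, a homeobox gene of regions behind the telencephalon, was dim on every array, at 3.78 in duplication replicate 3 and 3.04 to 3.31 in the others, and Emx2, a homeobox gene of the cortex and hippocampus, was 4.33 against 4.81 to 5.27.

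Of 14 measured genes of neural stem cells and radial glia, 9 were higher, at a median of 0.09, and 0 had an unadjusted p under 0.05 by limma. Their mean was 6.70 in duplication replicate 2 and 6.28 in duplication replicate 3, against 6.41 to 6.57 in control mice. Of 9 targets of Notch and bone morphogenetic proteins, 8 were higher, at a median of 0.13, among them Id4 at 0.23 (SE 0.12) and Smad6 at 0.13 (SE 0.08). Of 11 ependymal markers, 6 were higher, with a median of 0.08, and their means lay at 4.23 to 4.75 in duplication and 4.18 to 4.82 in control mice.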
